A study of Mus musculus with 4 samples.

Results

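Voltage-gated potassium (Kv) channels open when a neuron depolarises and carry the outward current that ends the action potential and sets the firing pattern. Hyperpolarisation-activated (HCN) channels, relatives of the Kv family, open below rest and carry an inward current that steadies the resting potential and paces rhythmic firing. Each Kv channel is a tetramer of pore-forming alpha subunits, and auxiliary subunits in the cytoplasm or membrane set its gating and its delivery to axons and dendrites. The genes described here are 38 Kv and HCN alpha subunits and auxiliary subunits, chosen by name with earlier results of these data known. Each was matched through its symbol to 1 mouse Ensembl identifier among the 55414 counted. All 38 passed the filter on low counts, as did 21592 genes in all, and none of the 38 had fewer than 568 reads in any library.

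The libraries were 2 from Stra8 knockout (KO) and 2 from wild-type (WT) mice, read by bulk messenger RNA sequencing of mouse brain. Stra8 is best known for starting meiosis in germ cells in response to retinoic acid. According to the series design, mice of both genotypes carried green fluorescent protein under the Stra8 promoter (pStra8-GFP), and positive cells were sorted from hippocampi to ask how Stra8 acts in them. The labels give brain as the tissue and give neither the knockout allele, the age, the sex nor the number of animals, and nothing says that libraries sharing a genotype stem from different animals, so p-values here measure only the spread between these libraries.

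Total counts were 82172740 and 71097417 in the KO libraries, against 80310856 and 81905583 in the WT libraries. Stra8 itself had 7 and 4 reads in the KO libraries and 5 and 1 in the WT libraries, too few to check the genotype labels. Markers of cells that a hippocampal sort would not hold were present in all 4 libraries: Gabra6, a GABA receptor subunit of cerebellar granule cells, had 10.96 and 11.01 CPM (the usual depth-scaled read count, from the TMM-scaled library size) in KO and 24.2 and 24.2 CPM in WT. The Purkinje cell marker Pcp2 had 7.55 and 7.23 CPM in KO and 18.6 and 19.4 CPM in WT. The striatal marker Adora2a had 34.1 and 32.3 CPM in KO and 25.9 and 25.99 CPM in WT. The data go against the description as sorted hippocampal cells, and the values are therefore given as those of the KO and WT libraries.

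Of the 38 channel genes, 11 were higher and 4 were lower in KO than in WT (n = 2 libraries per genotype, p from the quasi-likelihood test of edgeR, adjusted over all genes tested by Benjamini-Hochberg, threshold 0.05). The rises lay mostly among the electrically silent Kv subunits and the EAG, ERG and ELK channels, which held 8 of the 15 called genes, and the falls were in Kv4 and Kv1 alpha subunits and a Kv beta subunit. Every called change was small, between 1.04-fold and 1.23-fold for the rises and between 0.918-fold and 0.940-fold for the falls. The share called, 39.5%, compares with 6.53% of all genes tested. The channel genes were chosen with earlier results of these data known, so the shares and medians given here are descriptive and no evidence of enrichment. Among all genes, 3.35% were called higher and 3.19% lower. The channel genes are well expressed. Among the 10690 genes with a mean CPM in their range, from 7.50 to 453 CPM, 11.0% were called, 5.77% higher and 5.21% lower. That set shares only the range of the channel genes and was not matched to them in level. The KO and WT libraries did not overlap for 28 of the 38 genes (73.7%), against 45.7% of all genes tested and 52.7% of genes in that range. The median log2 fold change (KO over WT) was 0.060 over the 38 genes and -0.00038 over all genes tested. Without WT library 2, 7 genes were called higher and 2 lower.

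**Figure D1:**
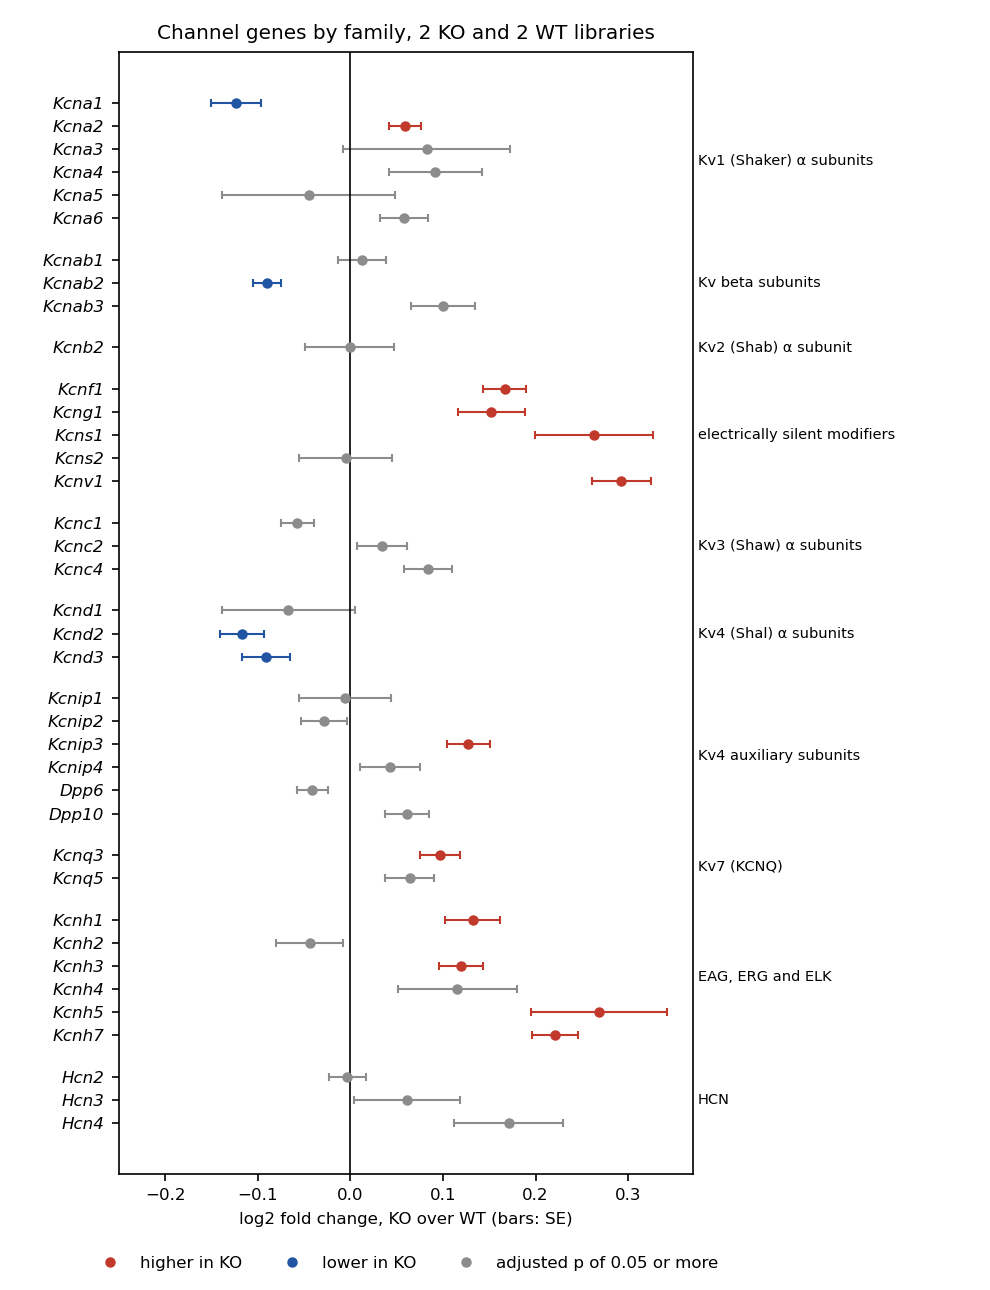
Log2 fold change of each of the 38 channel genes, KO over WT, with its standard error, grouped by family. Red points (11 genes) were called higher in KO, blue points (4 genes) lower, and grey points (23 genes) did not pass. The red points gather in the silent modifiers and in the EAG, ERG and ELK family, and all 3 Kv4 alpha subunits lie left of 0.

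The electrically silent subunits make no channel alone. They join Kv2 alpha subunits, here represented by Kcnb2, and change how those open and close. Of 5 measured, 4 rose, 0 fell and 1 did not pass, with a median log2 fold change of 0.17. Kcnv1 showed the largest change of all 38 channel genes, with 64.5 and 64.8 CPM in the KO libraries, against 52.8 and 52.8 CPM in the WT libraries. Its log2 fold change was 0.29 (SE 0.032, adjusted p = 6.94e-07 by edgeR), and the gap between genotypes was far wider than the gap within either. Kcnf1, the most abundant of the group, had 144 and 144 CPM in KO and 126 and 131 CPM in WT, a log2 fold change of 0.17 (SE 0.023, adjusted p = 2.34e-05 by edgeR). Kcns1 had 16.99 and 17.2 CPM in KO and 14.7 and 13.8 CPM in WT, a log2 fold change of 0.26 (SE 0.063, adjusted p = 0.00975 by edgeR). Kcng1 had 52.3 and 52.7 CPM in KO and 48.4 and 46.1 CPM in WT, a log2 fold change of 0.15 (SE 0.036, adjusted p = 0.00818 by edgeR). In all 4 of these genes both KO libraries lay above both WT libraries. Without WT library 2 the log2 fold changes of Kcns1 and Kcng1 were 0.22 and 0.12 and the calls ended (edgeR adjusted p = 0.131 and 0.158).

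Kcns2 went with none of them. It had 24.9 and 24.8 CPM in KO and 25.5 and 24.4 CPM in WT, a log2 fold change of -0.0052 (SE 0.050, adjusted p = 0.979 by edgeR). Kcnb2, the Kv2 partner, had 28.3 and 29.3 CPM in KO and 27.99 and 29.6 CPM in WT, a log2 fold change of -0.00086 (SE 0.048, adjusted p = 0.997 by edgeR). The libraries of the genotypes overlapped for both genes. The ratio of Kcnv1 to Kcnb2 reads, which no scaling between libraries can move, was 2.28 and 2.21 in the KO libraries and 1.88 and 1.79 in the WT libraries. This ratio and those given below were chosen after the values were seen and were not tested.

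The EAG, ERG and ELK channels are Kv channels whose cytoplasmic tail resembles a cyclic nucleotide binding domain. Of 6 measured, 4 rose, 0 fell and 2 did not pass, with a median log2 fold change of 0.13. Kcnh7, an ERG channel of neurons, had 114 and 112 CPM in the KO libraries, against 97.8 and 96.2 CPM in the WT libraries. Its log2 fold change was 0.22 (SE 0.025, adjusted p = 1.13e-06 by edgeR). Kcnh2, the ERG channel best known from the heart, did not follow it, with 50.01 and 52.4 CPM in KO and 51.8 and 53.7 CPM in WT (log2 fold change -0.044, SE 0.036, edgeR adjusted p = 0.606). The ratio of Kcnh7 to Kcnh2 reads was 2.28 and 2.14 in KO and 1.89 and 1.79 in WT. The genotypes thus separated in Kcnh7 and overlapped in Kcnh2.

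Both EAG channels rose. Kcnh1 had 78.1 and 75.5 CPM in KO and 70.3 and 69.97 CPM in WT, a log2 fold change of 0.13 (SE 0.030, adjusted p = 0.0052 by edgeR). Kcnh5, the less abundant of the pair, had 15.2 and 13.5 CPM in KO and 12.4 and 11.5 CPM in WT, a log2 fold change of 0.27 (SE 0.074, adjusted p = 0.0254 by edgeR). The KO libraries of Kcnh5 differed from each other by more than the lower of them differed from WT library 1. Without KO library 1 the log2 fold changes of Kcnh1 and Kcnh5 were 0.11 and 0.18 and neither was called (edgeR adjusted p = 0.069 and 0.313), and without WT library 2 that of Kcnh5 was 0.22 (edgeR adjusted p = 0.170). DESeq2 did not call Kcnh5 either (adjusted p = 0.0725). Of the ELK channels, Kcnh3, known as a channel of forebrain neurons, rose to 123 and 124 CPM in KO, against 113 and 114 CPM in WT (log2 fold change 0.12, SE 0.023, edgeR adjusted p = 0.00142). Kcnh4 had a similar log2 fold change of 0.12 at a lower level, 16.9 and 17.0 CPM in KO and 16.4 and 14.9 CPM in WT, and did not pass (SE 0.064, adjusted p = 0.378 by edgeR).

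Kv4 alpha subunits carry the fast, transient A-type current of neuronal dendrites and cell bodies. Of 3 measured, 0 rose, 2 fell and 1 did not pass, with a median log2 fold change of -0.091. Kcnd2 had 111 and 114 CPM in the KO libraries, against 122 and 122 CPM in the WT libraries, a log2 fold change of -0.12 (SE 0.024, adjusted p = 0.00207 by edgeR). Kcnd3 had 90.6 and 89.7 CPM in KO and 95.9 and 96.1 CPM in WT, a log2 fold change of -0.091 (SE 0.026, adjusted p = 0.0328 by edgeR). Both KO libraries lay below both WT libraries in each gene. The Kcnd3 call was lost by DESeq2 (adjusted p = 0.0955), with counts halved and rounded (edgeR adjusted p = 0.0506) and when any 1 library was left out, where its log2 fold change was -0.098 without KO library 1, -0.083 without KO library 2, -0.092 without WT library 1 and -0.089 without WT library 2 (edgeR adjusted p from 0.0571 to 0.152). Kcnd1, the least abundant and the X-linked member, had 11.98 and 11.2 CPM in KO and 12.1 and 12.2 CPM in WT (log2 fold change -0.067, SE 0.072, edgeR adjusted p = 0.722).

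The auxiliary subunits of Kv4 are the cytoplasmic calcium-binding KChIP proteins and the membrane proteins encoded by Dpp6 and Dpp10. Of 6 measured, 1 rose, 0 fell and 5 did not pass, with a median log2 fold change of 0.018. The difference between these genes and the Kv4 alpha subunits was not tested. The riser was Kcnip3, whose product is also known as the transcriptional repressor DREAM, with 135 and 134 CPM in KO and 121 and 125 CPM in WT (log2 fold change 0.13, SE 0.023, edgeR adjusted p = 0.000696). Dpp6, the most abundant of those that did not pass, had 311 and 314 CPM in KO and 323 and 319 CPM in WT (log2 fold change -0.041, SE 0.016, edgeR adjusted p = 0.170). Kcnip1, Kcnip2, Kcnip4 and Dpp10 had log2 fold changes of -0.0058, -0.029, 0.043 and 0.062. Kcnd2 and Kcnip3 went opposite ways, so that the ratio of Kcnd2 to Kcnip3 reads was 0.823 and 0.850 in the KO libraries and 1.01 and 0.972 in the WT libraries. Each WT library thus held about as many Kcnd2 as Kcnip3 reads, and each KO library fewer.

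Kv1 channels open at low thresholds and sit mainly on axons, where Kcna1 and Kcna2 subunits assemble together beside the nodes of Ranvier and at terminals. Of 6 measured, 1 rose, 1 fell and 4 did not pass, with a median log2 fold change of 0.058. Kcna1 fell, with 92.8 and 95.4 CPM in the KO libraries, against 100.3 and 105 CPM in the WT libraries (log2 fold change -0.12, SE 0.027, edgeR adjusted p = 0.00477). Kcna2 rose, with 359 and 348 CPM in KO and 339.5 and 339 CPM in WT (log2 fold change 0.059, SE 0.017, edgeR adjusted p = 0.0362). The ratio of Kcna1 to Kcna2 reads was 0.258 and 0.274 in KO and 0.295 and 0.308 in WT, and the genotypes did not overlap. Without WT library 2 the Kcna1 call was lost (log2 fold change -0.092, edgeR adjusted p = 0.115). The Kcna2 call was lost without KO library 1 (log2 fold change 0.035, edgeR adjusted p = 0.372), without WT library 1 (0.060, edgeR adjusted p = 0.0717) and without WT library 2 (0.059, edgeR adjusted p = 0.0772), by DESeq2 (adjusted p = 0.058) and with library size as the scaling (edgeR adjusted p = 0.0862).

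The other Kv1 genes did not pass. Kcna6 had 103 and 100.4 CPM in KO and 96.5 and 98.99 CPM in WT (log2 fold change 0.058, SE 0.026, edgeR adjusted p = 0.244). An annotated gene on the opposite strand, Gm26673, covers 39.6% of the Kcna6 exon length, and since no source used here says whether counting used strand, reads of the pair cannot be told apart. Kcna4, the fast-inactivating member, Kcna3 and Kcna5 had log2 fold changes of 0.092, 0.083 and -0.045 at mean levels of 25.02, 7.50 and 8.43 CPM. Kcna3 and Kcna5 overlapped between genotypes, and Kcna4 did not. The value of Kcna3 was 0.16 without KO library 1 and 0.0043 without KO library 2.

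Kv beta subunits bind Kv1 channels in the cytoplasm and, in the form encoded by Kcnab2, help bring them to the axon. Of 3 measured, 0 rose, 1 fell and 2 did not pass. Kcnab2 had 434 and 444 CPM in the KO libraries, against 469 and 465 CPM in the WT libraries, a log2 fold change of -0.090 (SE 0.016, adjusted p = 0.000361 by edgeR). Kcnab1, whose product makes Kv1 channels inactivate, had 93.8 and 95.2 CPM in KO and 93.7 and 93.7 CPM in WT (log2 fold change 0.012, SE 0.026, edgeR adjusted p = 0.884). The ratio of Kcnab2 to Kcnab1 reads was 4.63 and 4.66 in KO and 5.01 and 4.97 in WT. Kcnab3 pointed upward without passing, with a log2 fold change of 0.100 (SE 0.035, adjusted p = 0.0964 by edgeR). It was called without KO library 1 (0.13, edgeR adjusted p = 0.034) and without WT library 1 (0.14, edgeR adjusted p = 0.0467).

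**Figure D2:**
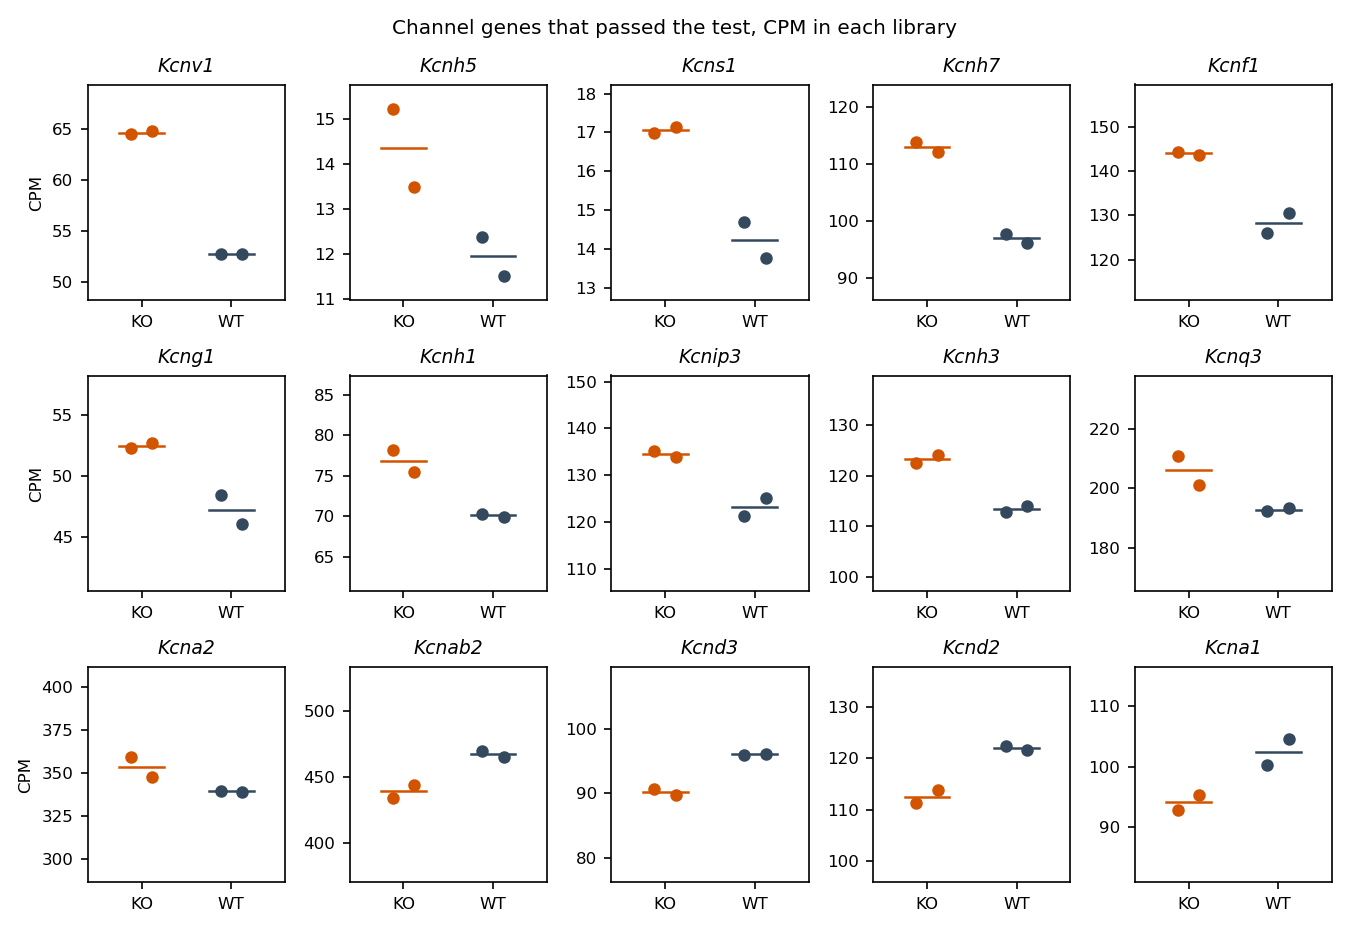
CPM of the 15 called channel genes in each library, 2 KO libraries left of 2 WT libraries in each panel, with a line at the mean. Each panel spans the same proportion of its level and does not start at 0. The libraries of the genotypes do not overlap in any panel, and the gap is widest in Kcnv1, with 64.5 and 64.8 CPM in KO against 52.8 and 52.8 CPM in WT.

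Kv7 channels carry the slow M-current, which muscarinic receptors close and which restrains repeated firing. Kcnq3 rose, with 211 and 201 CPM in KO and 192 and 193 CPM in WT (log2 fold change 0.097, SE 0.021, edgeR adjusted p = 0.00453). The KO libraries were farther apart than the WT libraries, and without KO library 1 the log2 fold change was 0.061 and the call was lost (edgeR adjusted p = 0.119). Kcnq5 had 91.7 and 91.1 CPM in KO and 87.9 and 86.9 CPM in WT and did not pass (log2 fold change 0.064, SE 0.026, edgeR adjusted p = 0.182).

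Kv3 channels open at high voltages and close fast, which allows rapid firing in cells such as parvalbumin interneurons and cerebellar neurons. None of the 3 measured passed (edgeR quasi-likelihood test), and 2 came close. Kcnc1 had 253 and 249.7 CPM in KO and 263 and 259.7 CPM in WT, a log2 fold change of -0.057 (SE 0.018, adjusted p = 0.0539 by edgeR). Kcnc4 had 97.6 and 97.7 CPM in KO and 91.3 and 92.9 CPM in WT, a log2 fold change of 0.084 (SE 0.026, adjusted p = 0.0522 by edgeR). The genotypes did not overlap in either gene. Kcnc1 was called under 6 of 13 alternative settings, among them the fit without KO library 1 (log2 fold change -0.067, edgeR adjusted p = 0.0411), and Kcnc4 under 2. Kcnc2 had a log2 fold change of 0.034 (SE 0.027, adjusted p = 0.593 by edgeR), and its libraries overlapped.

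None of the 3 HCN genes passed (edgeR quasi-likelihood test). Hcn2, the most abundant, had 212 and 213 CPM in the KO libraries and 209 and 217 CPM in the WT libraries, a log2 fold change of -0.0031 (SE 0.020, adjusted p = 0.968 by edgeR). The WT libraries enclosed the KO libraries. Hcn3 had 20.7 and 22.8 CPM in KO and 20.6 and 21.0 CPM in WT (log2 fold change 0.061, SE 0.057, edgeR adjusted p = 0.668). Hcn4, the slowly gating form known from the pacemaker of the heart and from thalamus, had 19.3 and 20.5 CPM in KO and 17.2 and 18.1 CPM in WT. Its log2 fold change of 0.17 was the largest among the channel genes that did not pass (SE 0.059, adjusted p = 0.0949 by edgeR).

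Scaled to exon length, the channel genes spread over a wide range of levels. Kcnab2 was highest, at 78.7 CPM per kb of exon in KO and 83.8 in WT, and Hcn2 next, at 66.4 in KO and 66.6 in WT. Both stood apart from every gene below them. Kcnip3 and Kcnip2 followed, at 37.9 and 33.1 CPM per kb in KO and 34.7 and 33.8 in WT, and they overlapped each other across libraries. Kcna2, Kcnf1, Kcnc1, Kcnc4 and Dpp6 came next, with overlapping neighbours, at means of 25.7 to 29.1 CPM per kb over the 4 libraries. At the low end Kcna5, Kcnd1 and Kcnb2 had means of 2.94, 2.24 and 1.90 CPM per kb, and Kcnd1 and Kcnb2 did not overlap their neighbours. The exon lengths are the union of all annotated exons of a mouse annotation of an older build (GENCODE M21), so a gene with many rarely used exons appears lower than it is.

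**Figure D3:**
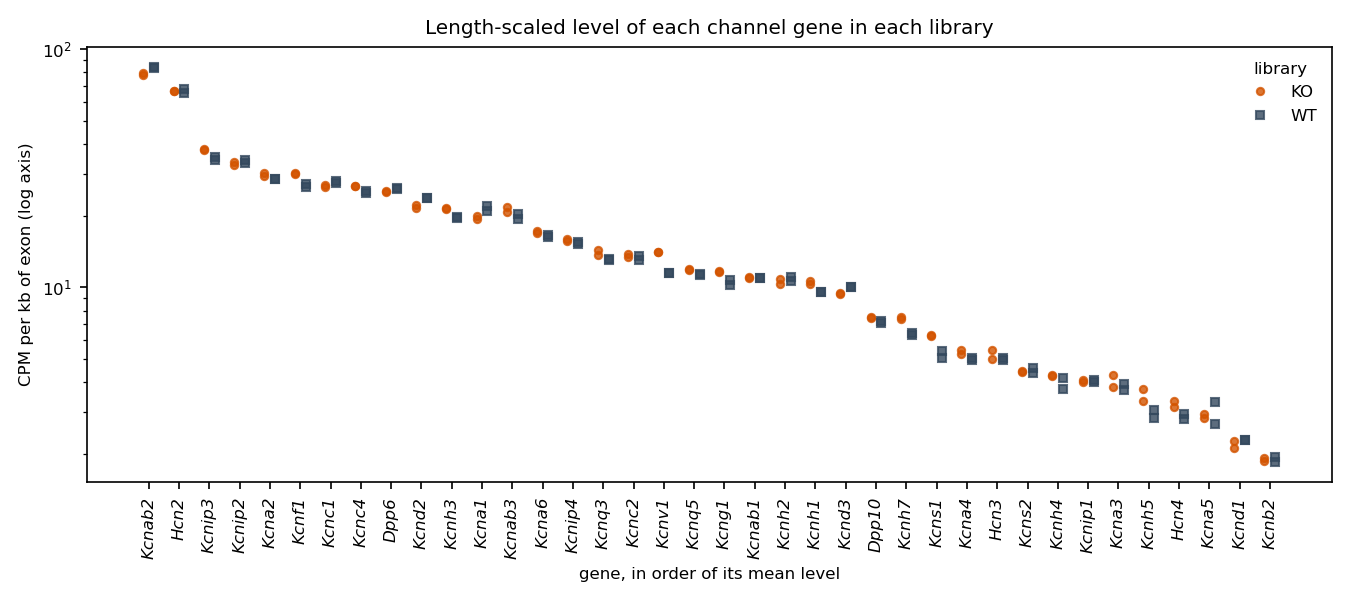
Level of each channel gene in CPM per kb of exon on a log axis, in order of the mean, with KO libraries (circles) left of WT libraries (squares). Levels run from Kcnab2, at 78.7 in KO and 83.8 in WT, to Kcnb2, with a mean of 1.90, and the distance between genotypes is small beside the distance between genes.

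The promoters of 4 called genes are shown: Kcnf1 and Kcns1 from the silent subunits, of which 4 of 5 rose, Kcnh7, the ERG gene that rose, and Kcnd2, the Kv4 gene with the lowest log2 fold change. The sequences are RefSeq windows of build GRCm38.p6, from 250 bases before to 50 after the gene start, 5′ to 3′ on the strand of the gene, at chr12:17176839-17177138 (minus strand), chr2:164171064-164171363 (minus), chr2:63184238-63184537 (minus) and chr6:21215096-21215395 (plus). Capitals mark the GC box GGGCGG on either strand, the core site of Sp-family factors.
Kcnf1: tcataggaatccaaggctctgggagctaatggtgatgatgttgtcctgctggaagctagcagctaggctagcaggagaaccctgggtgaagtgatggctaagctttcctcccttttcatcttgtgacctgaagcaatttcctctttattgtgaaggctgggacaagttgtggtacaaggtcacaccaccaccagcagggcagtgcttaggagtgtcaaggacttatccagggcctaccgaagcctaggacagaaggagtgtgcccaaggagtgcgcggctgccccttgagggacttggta
Kcns1: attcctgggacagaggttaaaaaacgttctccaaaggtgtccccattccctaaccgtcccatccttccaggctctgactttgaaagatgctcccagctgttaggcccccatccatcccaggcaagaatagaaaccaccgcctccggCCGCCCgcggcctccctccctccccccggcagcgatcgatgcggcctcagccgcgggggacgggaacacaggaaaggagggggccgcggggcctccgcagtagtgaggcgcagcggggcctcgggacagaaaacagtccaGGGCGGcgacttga
Kcnh7: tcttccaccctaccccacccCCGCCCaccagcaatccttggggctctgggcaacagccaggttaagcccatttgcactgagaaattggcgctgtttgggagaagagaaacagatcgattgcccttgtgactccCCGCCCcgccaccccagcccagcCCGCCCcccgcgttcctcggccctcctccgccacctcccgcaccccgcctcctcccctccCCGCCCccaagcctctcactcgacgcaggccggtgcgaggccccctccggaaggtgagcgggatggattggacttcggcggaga
Kcnd2: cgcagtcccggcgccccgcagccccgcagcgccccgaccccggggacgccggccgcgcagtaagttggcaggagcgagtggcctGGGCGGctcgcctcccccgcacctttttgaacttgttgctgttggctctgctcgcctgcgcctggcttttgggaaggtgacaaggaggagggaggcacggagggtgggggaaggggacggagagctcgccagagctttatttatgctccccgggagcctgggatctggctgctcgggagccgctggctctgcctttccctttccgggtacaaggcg
The window of Kcnf1 held 0 GC boxes, that of Kcns1 held 2, that of Kcnh7 held 4 and that of Kcnd2 held 1. Of the 38 channel genes 28 had a window in the table, and 22 of the 28 had a GC box in at least 1 of their windows, against 38.2% of the 27025 genes in the table. The channel genes have more windows per gene, and counted by window the GC box was in 24 of 43, against 35.7% of all windows. The E-box CACGTG was in 2 of the 28 (8.09% of all genes) and the cyclic AMP response element TGACGTCA in 0 (2.03% of all genes). The 43 windows of channel genes had a median GC content of 62.7%, against 52.7% over all 32851 windows. A match describes the letters of the window and nothing of what binds there.

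Other potassium channel genes and Kv or HCN partner genes, 44 tested, gave 6 rises and 3 falls (20.5% called) with a median log2 fold change of 0.026. Of 10 inward rectifiers 3 rose, 1 fell and 6 did not pass. Of these 6, Kcnj16 was called without KO library 1 (log2 fold change 0.19) and without WT library 1 (0.20). Kcnj9, a G protein gated channel subunit, had 154 and 157 CPM in KO and 143 and 135 CPM in WT (log2 fold change 0.16, SE 0.024, edgeR adjusted p = 6.50e-05), and Kcnj4 rose by 0.14 and the glial potassium channel gene Kcnj10 by 0.083. Kcnj13, known from choroid plexus, fell by 0.46 and was called neither without WT library 1 (log2 fold change -0.36, edgeR adjusted p = 0.191) nor by DESeq2 (adjusted p = 0.0583). Of 8 two-pore channels 1 rose, Kcnk2 (log2 fold change 0.16, edgeR adjusted p = 0.00244), and 1 fell, Kcnk10 (-0.23, edgeR adjusted p = 0.0306), a call that ended by DESeq2 (adjusted p = 0.0882) and with any 1 library left out, at -0.25 without KO library 1, -0.22 without KO library 2, -0.22 without WT library 1 and -0.25 without WT library 2. Of 8 calcium-activated channel genes Kcnmb4, a subunit of the BK channel, rose by 0.12 and Kcnn2, an SK channel, fell by 0.15. Without KO library 1, WT library 1 or WT library 2 the Kcnmb4 call was lost (log2 fold changes 0.11, 0.11 and 0.13), as it was by DESeq2 (adjusted p = 0.0773), and without WT library 2 that of Kcnn2 was lost (-0.10). Among 4 measured Kcne genes none passed (edgeR quasi-likelihood test). Among 14 partner and anchoring genes only Dlg4, the postsynaptic scaffold gene, was called, with a log2 fold change of 0.044 (edgeR adjusted p = 0.0345). That call was lost without KO library 1 (0.044), without KO library 2 (0.046) and without WT library 2 (0.039). It was also lost with counts halved and rounded (edgeR adjusted p = 0.326) and with library size as the scaling (edgeR adjusted p = 0.118). Halving the counts added calls of Dlg2 (0.044, edgeR adjusted p = 0.0166) and Ank3 (-0.021, edgeR adjusted p = 0.0221). Dlg2 was called without WT library 1 as well (0.066). The genes of the juxtaparanodal Kv1 complex, Cntnap2 and Cntn2, had log2 fold changes of 0.071 and -0.037 and did not pass. Without WT library 2 Cntnap2 was called (0.096, edgeR adjusted p = 0.0377). The lists were written with earlier results of these data known.

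Markers of brain regions and cell types moved in the same libraries. All 8 Purkinje cell markers and 9 of 10 cerebellar granule cell markers were lower in KO, with summed levels of 640 and 650 CPM in KO against 779 and 788 CPM in WT for Purkinje cells and 459.97 and 462 CPM against 632 and 636 CPM for granule cells. Of 8 dentate granule cell markers 6 were lower and 1 higher, with sums of 183 and 179.9 CPM in KO and 215 and 209.9 CPM in WT. In the opposite direction, all 10 striatal markers were higher, with sums of 1117 and 1111 CPM in KO and 929 and 931 CPM in WT. Of 9 neocortical markers 6 were higher and 1 lower, with sums of 696 and 690.2 CPM in KO and 629.7 and 636 CPM in WT. All 8 oligodendrocyte markers were higher, with sums of 10790.3 and 10807 CPM in KO and 10157 and 10234 CPM in WT. Of 8 interneuron markers 1 was higher and 1 lower, with a median log2 fold change of 0.049. Vip, of a class of cortical interneurons, had 20.7 and 19.5 CPM in KO and 16.3 and 17.7 CPM in WT. Pvalb, which fast-spiking interneurons and also Purkinje cells express, had 42.5 and 41.1 CPM in KO and 48.2 and 48.7 CPM in WT. Among the other lists, 3 of 6 CA1 and 3 of 8 CA3 and CA2 markers, 4 of 6 choroid plexus markers and 3 of the 4 anterior pituitary markers tested were lower and none of these was higher. Of 8 thalamic and of 5 endothelial markers 1 each was higher, and none was lower. Of 7 astrocyte markers 2 were lower, of the 3 glycinergic neuron markers tested 1 was lower, and none of these was higher. None of 6 microglial markers passed (edgeR quasi-likelihood test). No marker of any list named here was at 0 in all 4 libraries. The part of these markers in the channel results was not tested, and in bulk libraries fewer cells of a type and less RNA per cell cannot be told apart.

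**Figure D4:**
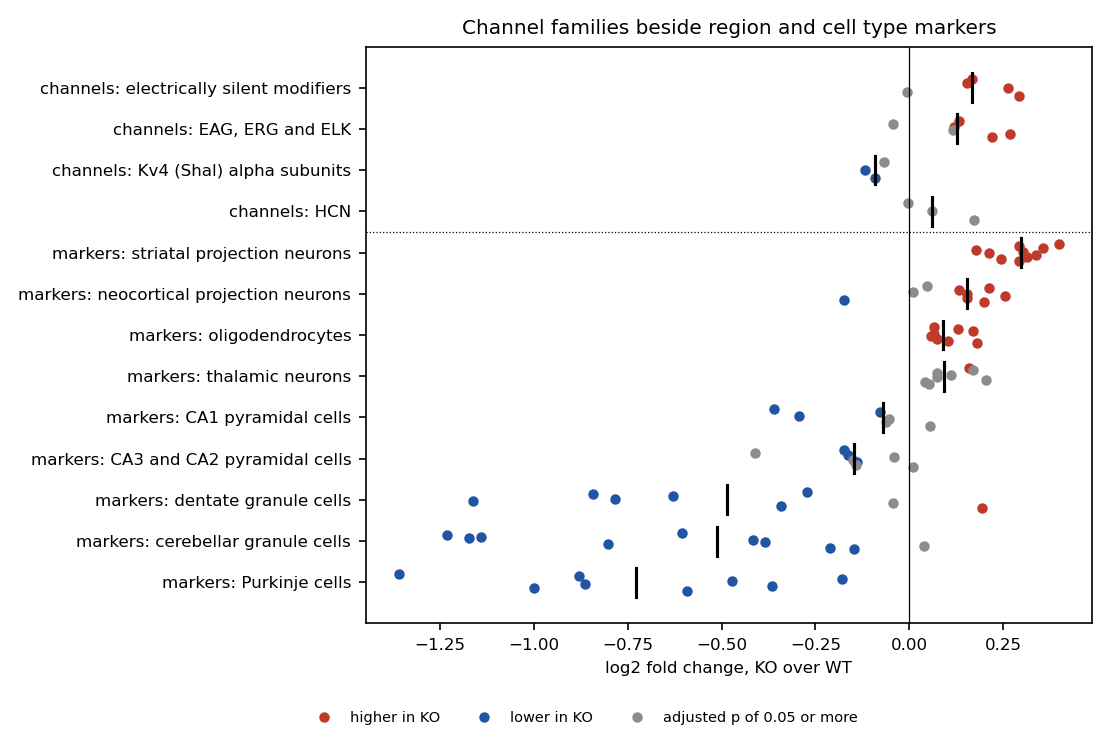
Log2 fold change, KO over WT, of single genes in 4 channel families (above the dotted line) and in 9 region and cell type marker lists (below), with a black bar at each list's median. Red points were called higher in KO, blue points lower, and grey points did not pass. The medians of the striatal markers, the neocortical markers and the silent modifiers lie to the right of 0, at 0.30, 0.15 and 0.17, with the neocortical marker Crym at -0.18 and the silent modifier Kcns2 at -0.0052, and the cerebellar, Purkinje and dentate markers reach farther to the left than any channel gene.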

How the data were processed

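The authors deposited 1 table of raw counts of reads per gene for 2 KO and 2 WT libraries. The headers of the KO columns carry the suffix Huang and those of the WT columns do not. What the suffix stands for is not given, and whatever it marks cannot be told apart from genotype. The submitters' processing notes list STAR 2.6.1c, featureCounts, FastQC and DESeq2, and the build GRCm39. The role of each tool, the annotation release and the use of strand were not given in the sources used here. Most counts from 1 to 20 were even (72.9% to 74.2% in each pair of libraries), as when each mate of a pair counts as a read. Libraries of 1 genotype differed by 1.18 to 1.40 times the Poisson variance of read pairs in genes with 20 to 50 and 3000 to 10000 reads, and by 5.88 (KO) and 11.4 (WT) times in genes above 30000 reads, the range of Kcnab2.

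Symbols matched 52081 of 55414 identifiers. The filter was filterByExpr of edgeR 4.0.16 (R 4.3.3) at a minimum count of 10 (21592 genes kept), with TMM scaling (factors 0.997 to 1.00) and a test of genotype by glmQLFit and glmQLFTest. The threshold for a call was 0.05 after Benjamini-Hochberg adjustment. CPM use the TMM-scaled library size. The SE is the log2 fold change over the square root of F. The procedure was tested on simulated counts whose variance over Poisson was the same for all genes. The outcome is not given here, so the simulation is no support for calls as small as those of the channel genes. In genes above 30000 reads the libraries here varied more, so the simulation does not cover that range.

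Alternatives were DESeq2 1.42.0, limma-trend (limma 3.58.1, prior count 2), other scalings and filters (minimum count 50 or none), a dispersion of 0, halved counts, a replicate block and each library left out. All 38 genes are accounted for. Called genes, and of those not called the most abundant of each family, have the value in every library, as do some others, chosen after their values were seen. Of related and marker lists up to 3 genes with the smallest p were to be named, and some others are named by choice. The members and lists were chosen with earlier results of these data known.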

Additional observations from a re-analysis of the deposited data

How the results depend on the processing

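Of the 15 channel calls, 7 (Kcnab2, Kcnf1, Kcnv1, Kcnd2, Kcnip3, Kcnh3 and Kcnh7) were made under all 13 alternatives run. All 15 were also made with DESeq2 size factors in edgeR, limma-trend, a dispersion of 0, no filter, the stricter filter and the replicate block, 12 with DESeq2, and 14 each with halved counts (without Kcnd3) and library size alone (without Kcna2). Leaving out 1 library gave 7 to 11 channel genes called higher and 2 to 4 lower, and 1 to 2 related genes lower. DESeq2 called 1 related gene lower. With library size alone the median log2 fold change was 0.049 for Kv1 and 0.16 for the silent modifiers. With 1 library left out the medians ranged from 0.036 to 0.067 for Kv1, 0.16 to 0.19 for the silent modifiers and 0.13 to 0.16 for the EAG, ERG and ELK genes. Among genes that were not called, Kcnb2 changed sign in limma-trend (0.00031) and with the replicate block (0.00037). With 1 library left out the log2 fold change ranged from 0.0043 to 0.16 for Kcna3, -0.19 to 0.11 for Kcna5, -0.039 to 0.039 for Kcnb2, -0.019 to 0.0083 for Kcnip1, -0.039 to 0.030 for Kcns2, -0.029 to 0.024 for Hcn2 and -0.0063 to 0.13 for Hcn3. The signs of all of these but Kcna3 changed and were not resolved at this depth, and the cause was not tested. A fit that leaves out 1 library assumes that the lone library of that genotype varies like the others. The labels give both genotypes the same replicate numbers, but same-numbered libraries deviated together hardly at all (correlation over genes 0.029). Deviations close to counting noise keep such a correlation low, so it cannot exclude a pairing. The replicate block gave 12 channel genes higher and 5 lower, and added the calls of Kcnc1 and Kcnc4.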

Other observations

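Kcne3, a potassium channel beta subunit gene, had 11 and 10 reads in the KO libraries and 0 and 2 in the WT libraries (edgeR adjusted p = 0.0537). It was singled out after its values were seen, and at so few reads, where mates of a pair may count separately, no fold is given.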
